A study of Mus musculus with 7 samples.

Results

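Transcripts of the neuropeptide Y family and of its receptors were followed in sorted mouse pancreatic alpha cells in which the homeodomain transcription factor gene Nkx2-2 could be deleted. The set held 10 of the 55536 genes in the count table, chosen by name: the peptide genes Ppy, Pyy and Npy, the Y receptor genes Npy1r, Npy2r, Npy4r, Npy5r and Npy6r, and Sertm1 and Aqp4, which were added as other genes of gamma cells. The control group had 4 libraries of Nkx2.2+/+;Gcg-iCre;Rosa26:tdTomato cells and the KO group had 3 libraries of Nkx2.2fl/fl;Gcg-iCre;Rosa26:tdTomato cells. Both groups therefore carried a Cre recombinase under the glucagon gene and a red reporter that Cre switches on, and cells were collected from islets by that fluorescence. The reporter marks every cell in which this Cre has acted, whatever hormone the cell makes later. The strain was C57BL/6J, written with a 1 in place of the L in the design text, which also writes the reporter locus as Rosa25. The labels give no age or sex and do not say whether animals were pooled, so p-values measure the spread between these libraries.

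Pancreatic polypeptide, peptide YY and neuropeptide Y are short amidated peptides of one family, cut from larger precursors in secretory granules. Gamma cells, also called PP cells, are the islet cells known for pancreatic polypeptide, peptide YY is made in gut endocrine cells and in islets, and neuropeptide Y is a transmitter of sympathetic and brain neurons that is also made in islets. The Y receptors are coupled to inhibitory G proteins: Npy4r encodes the receptor that prefers pancreatic polypeptide, while those encoded by Npy1r, Npy2r and Npy5r bind peptide YY and neuropeptide Y.

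The 3 peptide genes are shown by the 250 bases that precede their annotated start, because these genes were the members with higher counts in KO cells. The sequences are from RefSeq on GRCm38.p6 and read 5′ to 3′ along the gene. Capitals mark each match to AAGTG (the core bound by NK2-class homeodomain factors such as NKX2.2), CACCC (the box bound by KLF factors, which the series title names through KLF4) and TATAA (the TATA box core), searched on both strands, so that GGGTG is CACCC on the opposite strand. No match overlapped another.
Ppy promoter, chr11:102101320-102101569, minus strand: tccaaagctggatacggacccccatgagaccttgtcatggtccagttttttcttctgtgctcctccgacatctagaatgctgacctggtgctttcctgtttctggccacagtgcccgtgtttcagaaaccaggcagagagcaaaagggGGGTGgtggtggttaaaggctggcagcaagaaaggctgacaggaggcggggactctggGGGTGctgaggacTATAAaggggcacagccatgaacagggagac
Pyy promoter, chr11:102107833-102108082, minus strand: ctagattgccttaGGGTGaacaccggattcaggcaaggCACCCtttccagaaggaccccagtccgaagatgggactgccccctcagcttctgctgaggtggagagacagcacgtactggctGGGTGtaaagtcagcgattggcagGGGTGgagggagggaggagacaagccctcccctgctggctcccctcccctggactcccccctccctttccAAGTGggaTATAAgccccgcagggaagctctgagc
Npy promoter, chr6:49822460-49822709, plus strand: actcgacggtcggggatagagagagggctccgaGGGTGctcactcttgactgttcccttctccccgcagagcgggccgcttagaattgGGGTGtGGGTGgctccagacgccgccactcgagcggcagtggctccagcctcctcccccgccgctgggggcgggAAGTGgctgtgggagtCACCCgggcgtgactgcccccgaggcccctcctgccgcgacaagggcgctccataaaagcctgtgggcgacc

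The Ppy window held TATAA at 31 to 27 bases before the start, CACCC at 102 to 98 and at 44 to 40 bases on the opposite strand, and no AAGTG. The Pyy window, of the first of its annotated starts, held AAGTG at 35 to 31 bases, followed by TATAA at 27 to 23 bases, and 4 matches of CACCC. The Npy window held AAGTG at 88 to 84 bases and 4 matches of CACCC, with no TATAA. Among 32851 RefSeq promoter windows of the same length, 40.71% held AAGTG, 52.01% held CACCC and 22.78% held TATAA. Within the last 50 bases these shares were 9.491%, 14.19% and 6.359%. The matches describe letters in a window, and binding was not measured here.

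The targeted gene and glucagon were read first. Nkx2-2 averaged 10468 ± 1618 (SD, n = 4) normalized counts in control cells and 7662 ± 115 (SD, n = 3) in KO cells, and its log2 fold change was -0.45 (DESeq2 adjusted p = 0.0218, edgeR adjusted p = 0.152). Its call held in DESeq2 without control 1 or control 4 and was lost without any other library, with adjusted p up to 0.156. Counts over the whole gene thus do not show how far Nkx2-2 was deleted. Gcg, the glucagon gene that defines alpha cells, was present in every library and was lower in KO, at 3423114 ± 635109 (SD, n = 3) against 7042726 ± 855536 (SD, n = 4) normalized counts, or -1.04 on the log2 scale (DESeq2 adjusted p = 6.76e-10, edgeR adjusted p = 0.175). Libraries held 45483504 to 72456557 counts. Control 4, the deepest, had counts for 31024 genes, and the other libraries for 23150 to 25873. One KO column carries a number that matches no KO sample title and is called the unnumbered KO library. Values of KO libraries are given in the order KO 1, KO 2, unnumbered. The summed normalized counts of 4 Y-linked genes were 4.54, 0, 8764 and 8844 in controls 1 to 4. The KO libraries held 1675, 3491 and 11338. Xist, an RNA gene active in female cells, had 43226, 42539, 5.23 and 1049 in controls 1 to 4. It had 43397, 25628 and 808 in the KO libraries. Controls 1 and 2 thus had almost no Y-linked counts and control 3 almost no Xist, while KO 1 and KO 2 had many of both. Sex therefore differed between libraries. Apart from a fit with a Y-linked covariate, its part in the values below was not tested.

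All 3 peptide genes were higher in KO than in control cells, while Sertm1 and Aqp4 were not, and the receptor genes were at or near 0 counts in most libraries. DESeq2 gave an adjusted p for 5 of the 10 members and called 3 of them at a threshold of 0.05, Ppy, Pyy and Npy. Over all 17571 genes tested it called 4.51%, of which 2.24% were higher and 2.27% lower in KO. The edgeR quasi-likelihood test, run beside DESeq2 because it made fewer calls, tested 6 members and called 1, Ppy. It called 1.05% of 19310 genes, and 0.404% were called higher. The KO libraries lay above all controls for the same 3 peptide genes, as they did for 6.07% of the genes tested. In bulk RNA, more cells that express a gene and more RNA per cell cannot be told apart, and this holds for each value below.

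**Figure D1:**
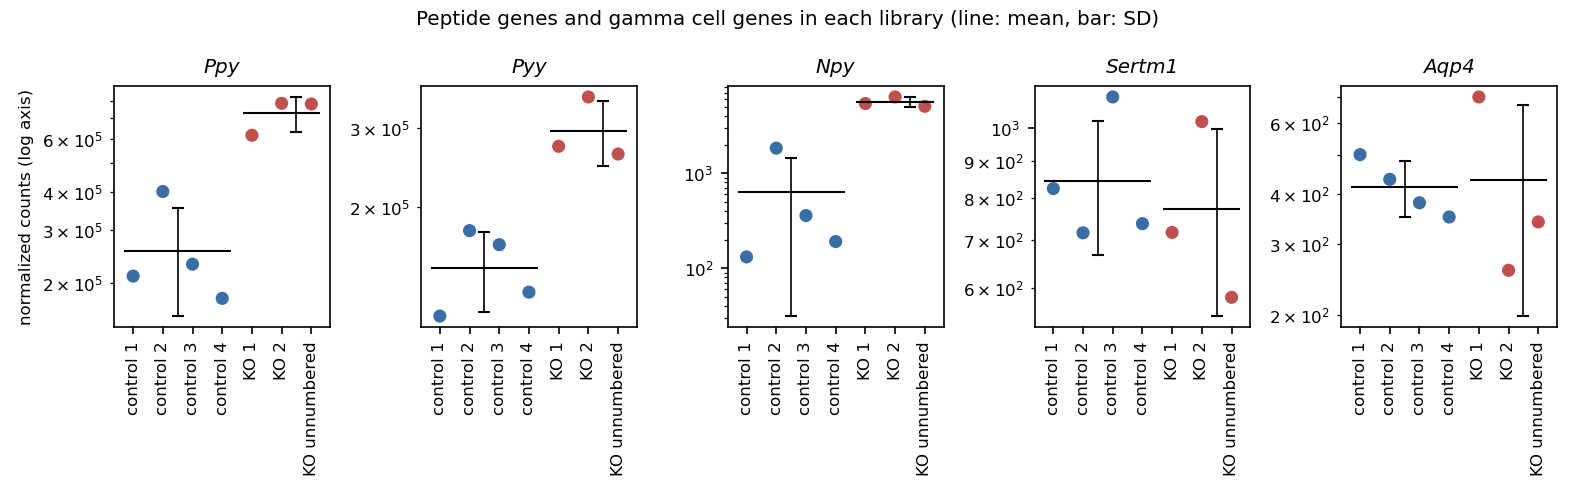
Normalized counts (log axis, a separate scale in each panel) of Ppy, Pyy, Npy, Sertm1 and Aqp4 in each of the 4 control (blue) and 3 KO (red) libraries, with the group mean as a line and the SD as a bar. The KO libraries of Ppy, Pyy and Npy sit above every control, control 2 is the highest control for all 3, and the groups of Sertm1 and Aqp4 overlap.

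Ppy encodes the precursor of pancreatic polypeptide (ENSMUSG00000017316, chromosome 11, 102099930 to 102101319, minus strand, GRCm38). Controls 1 to 4 held 211422, 401493, 231384 and 178540 normalized counts of Ppy. The KO libraries held 615185, 783711 and 779688. Control 2 was the highest control, and the lowest KO library was still 1.53 times as high as it. Group means were 255710 ± 99601 (SD, n = 4) for control and 726194 ± 96158 (SD, n = 3) for KO. The log2 fold change was 1.51 (SE 0.23, 95% interval 1.05 to 1.96, DESeq2 adjusted p = 2.52e-08), and the adjusted p of edgeR was 0.0474. When each library was left out in turn, DESeq2 called Ppy in all 7 fits, with adjusted p up to 0.0304. In edgeR it passed without control 2 and without control 4, and not without any of the other 5 libraries, where adjusted p lay between 0.142 and 0.174.

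Ppy was already among the most abundant transcripts of the control cells. Its length-scaled level, the counts per kb of exon and per 1000000 counts of the library, was 9039 ± 3310 (SD, n = 4) in control and 27793 ± 4704 (SD, n = 3) in KO cells. Among 22028 protein-coding genes ranked by this level it was in place 2 or 3 in each control and in place 2 in each KO library. As a share of all counts it ran from 0.341% to 0.698% in controls and from 1.14% to 1.61% in KO libraries. The 95% Wilson intervals of these shares cover counting error only and treat each count as a separate fragment. They were narrower than the gaps between libraries: that of control 1 was 0.378% to 0.381%. Most other islet hormone genes also ranked high in controls. Sst was in places 2 to 3, Ins2 in 4 to 6, Ins1 in 8 and Iapp in 9 to 14, while Ghrl ran from 1097 to 11643.

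Pyy encodes the peptide YY precursor (ENSMUSG00000017311, chromosome 11, 102106676 to 102107832, minus strand). Controls 1 to 4 held 114782, 177560, 165252 and 129702 normalized counts of it, and the KO libraries held 273060, 351318 and 262546. The groups did not overlap, and the lowest KO library was 1.48 times the highest control. The mean was 146824 ± 29463 (SD, n = 4) for control against 295641 ± 48503 (SD, n = 3) for KO, and the log2 fold change was 1.01 (SE 0.17, 95% interval 0.68 to 1.34, DESeq2 adjusted p = 5.94e-07). In edgeR the fold change was the same to 2 decimals and the adjusted p of 0.0536 missed the threshold. All 7 leave-out fits of DESeq2 called Pyy, with adjusted p up to 1.49e-04. Of the edgeR fits, 1 did, that without control 2. The length-scaled level of Pyy was 4122 ± 695 (SD, n = 4) in control and 8896 ± 1026 (SD, n = 3) in KO cells, in places 4 to 6 of the protein-coding genes in controls and 3 to 5 in KO libraries.

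Npy encodes the precursor of neuropeptide Y (ENSMUSG00000029819, chromosome 6, 49822710 to 49829507, plus strand). Controls 1 to 4 held 131.6, 1833, 358.2 and 190.8 normalized counts of Npy, and the KO libraries held 5400, 6328 and 5047. Control 2 stood apart from the other controls, yet the lowest KO library was 2.75 times as high as it. The controls spanned a 13.9-fold range, against 1.25-fold among the KO libraries. Group means were 628 ± 809 (SD, n = 4) for control and 5591 ± 662 (SD, n = 3) for KO. The log2 fold change was 3.15 (SE 0.97, 95% interval 1.26 to 5.05, DESeq2 adjusted p = 0.0291), and edgeR gave an adjusted p of 0.120.

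The size of the Npy difference depended on control 2. Without that library the log2 fold change was 4.63, with adjusted p-values of 8.87e-58 in DESeq2 and 0.00149 in edgeR. Without control 1, control 3 or control 4 the DESeq2 adjusted p was 0.0774, 0.157 or 0.0724, and Npy was not called. DESeq2 set Npy aside, with no adjusted p, when any of the 3 KO libraries was left out, and edgeR did not call it there. With the summed level of 4 Y-linked genes as a covariate the log2 fold change was 4.27 (DESeq2 adjusted p = 1.19e-04). The length-scaled level of Npy was far below those of its relatives, at 19.4 ± 24.8 (SD, n = 4) in control and 188 ± 12.4 (SD, n = 3) in KO cells. Its place among protein-coding genes ran from 277 to 6491 in controls and from 73 to 78 in KO libraries.

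Ratios of genes within a library do not depend on the scaling between libraries, and 8 of them were compared. With 4 against 3 libraries there are 35 splits, so the smallest p of the exact permutation test is 0.0571 and none can pass 0.05. For every 100 counts of Gcg, controls 1 to 4 held 2.85, 6.15, 2.87 and 2.90 counts of Ppy, and the KO libraries held 18.5, 19.1 and 27.5. Control 2 had the highest ratio of the controls, and all KO libraries lay above it. The geometric mean ratio was 6.14-fold higher in KO (log2 difference 2.62, exact two-sided permutation p = 0.0571, adjusted over 8 ratios 0.0914). Ppy and Gcg moved in opposite directions, so this ratio holds both changes. For Pyy the controls held 1.55, 2.72, 2.05 and 2.10 counts per 100 of Gcg and the KO libraries 8.19, 8.57 and 9.25, a 4.20-fold difference (exact two-sided permutation p = 0.0571, adjusted 0.0914).

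**Figure D2:**
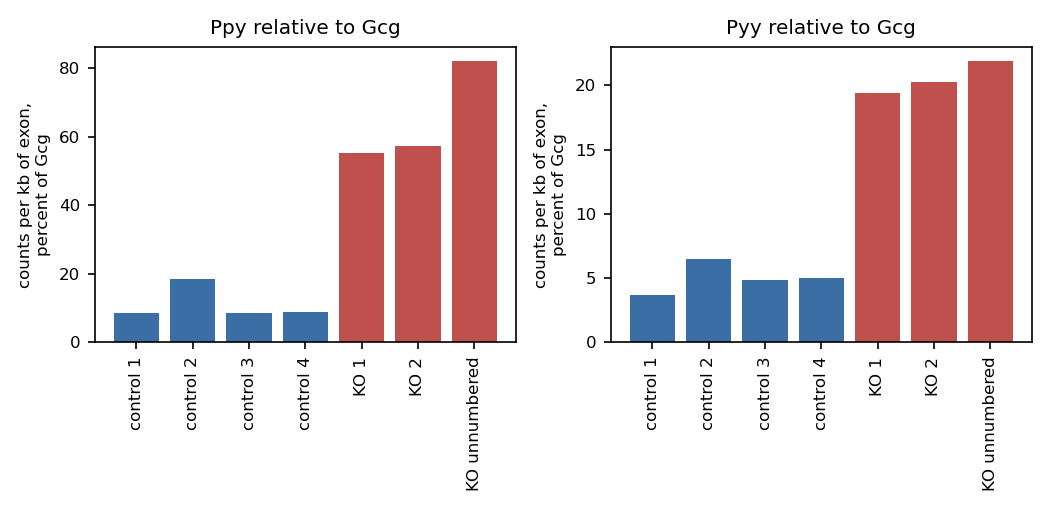
Level of Ppy (left) and Pyy (right) per kb of exon as a percent of that of Gcg in each control (blue) and KO (red) library, both axes from 0. The KO libraries lie between 55.2% and 82.1% for Ppy and between 19.4% and 21.9% for Pyy, all above the controls.

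Corrected for exon length, the Ppy level was 11.0% ± 4.89 (SD, n = 4) of the Gcg level in control and 64.8% ± 15.0 (SD, n = 3) in KO cells. The corresponding values for Pyy were 4.98% ± 1.14 and 20.5% ± 1.27. The Ppy to Pyy ratio was 184, 226, 140 and 138 Ppy counts per 100 Pyy counts in controls and 225, 223 and 297 in KO libraries. Control 2 lay within the KO range, so the groups overlapped (log2 difference 0.55, exact two-sided permutation p = 0.171, adjusted 0.171). Npy against Ppy did not overlap between the groups, with 0.0622, 0.457, 0.155 and 0.107 Npy counts per 100 Ppy counts in controls and 0.878, 0.807 and 0.647 in KO libraries (log2 difference 2.39, exact two-sided permutation p = 0.0571, adjusted 0.0914).

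The receptor genes gave almost no counts. Npy1r, which encodes the Y1 receptor (chromosome 8, 66697192 to 66706792), had raw counts of 12, 2, 10 and 18 in the controls, against 0, 14 and 0 in the KO libraries. Npy2r, of the Y2 receptor, had 0 in every control and 4, 6 and 0 in the KO libraries. Npy4r, of the receptor for pancreatic polypeptide, had 0 in every control and 4, 0 and 0 in the KO libraries. The gene of the receptor that prefers pancreatic polypeptide was thus above 0 in KO 1 alone of the 7 libraries. Npy5r, of the Y5 receptor, had 2 counts in the unnumbered KO library and Npy6r, of the Y6 receptor, had 2 in KO 2, with 0 in all other libraries.

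Over the 5 receptor genes and 7 libraries, 25 of 35 values were 0 and 7 were above a floor of 3 counts. This is the upper limit that a count of 0 allows where each count is a separate fragment. That floor was 0.0414 to 0.0660 counts per 1000000 counts of a library, for counting error only. The sum over receptors was 42 counts in controls and 32 in KO libraries. Each of the 10 values above 0 was even, and 84.35% to 88.91% of all gene counts from 1 to 10 in a library were even. This pattern arises when each fragment is counted through both of its reads. These counts may then stand for fewer fragments, and the floor would lie higher in counts, with fewer values above it. DESeq2 gave no receptor an adjusted p. In edgeR with no filter on low counts their adjusted p-values were 0.607 to 0.829. Differences between the groups were not detectable at this depth, and no fold changes are given. Npy5r and Npy1r lie on opposite strands with 9063 bp between them.

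Sertm1 and Aqp4 give the contrast to the peptide genes. Sertm1, which encodes a small serine-rich membrane protein (chromosome 3, 54897068 to 54915887), was at 825, 716, 1106 and 737 normalized counts in the controls, against 717, 1022 and 582 in the KO libraries. The groups overlapped, with a log2 fold change of -0.13 (95% interval -0.59 to 0.33, DESeq2 adjusted p = 0.987, edgeR 0.948). Aqp4, a water channel gene, had 501, 435, 380 and 351 in controls and 698, 258 and 341 in KO libraries. KO 1 was the highest and KO 2 the lowest of the 7, and the log2 fold change was 0.05 (95% interval -0.59 to 0.69, DESeq2 adjusted p = 0.999, edgeR 0.992). The sign of both small differences turned in some leave-out fits. The upper ends of the intervals, 0.33 for Sertm1 and 0.69 for Aqp4, lie below the lower end of that of Ppy, 1.05. The lower end of that of Pyy, 0.68, lies above the upper end of Sertm1 but just below that of Aqp4, so the intervals of Pyy and Aqp4 overlap.

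Set against Sertm1 within each library, Ppy was higher in every KO library than in every control. There were 256, 561, 209 and 242 Ppy counts per count of Sertm1 in controls and 858, 766 and 1339 in KO libraries, with no overlap (log2 difference 1.71, exact two-sided permutation p = 0.0571, adjusted 0.0914). The Pyy to Sertm1 ratio also did not overlap (log2 difference 1.17, exact permutation p = 0.0571). Against Aqp4 the groups overlapped through KO 1, for Ppy (log2 difference 1.63, exact permutation p = 0.114) and for Pyy (1.09, exact permutation p = 0.171).

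**Figure D3:**
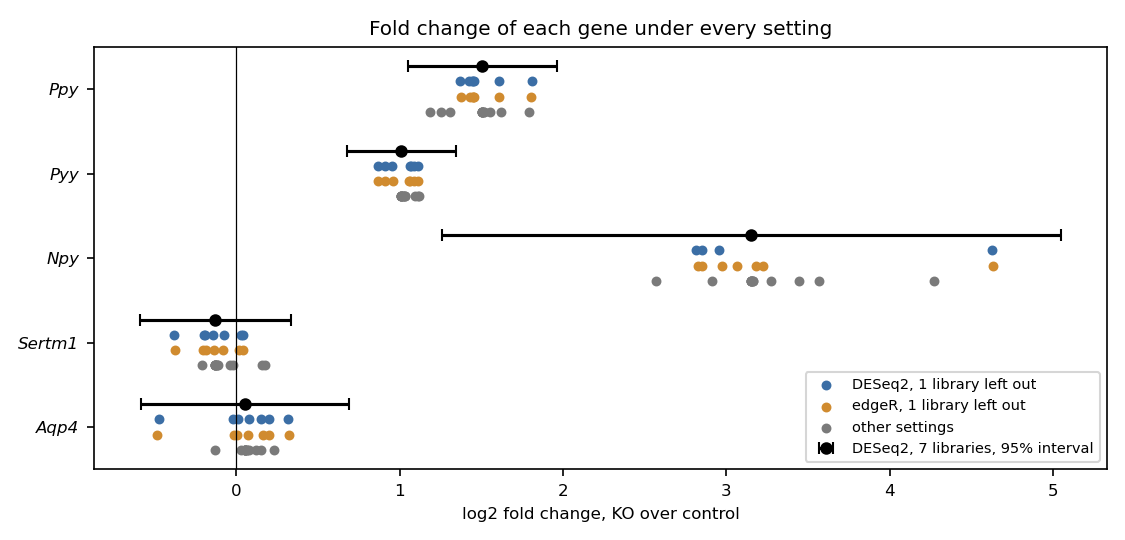
Log2 fold change (KO over control) of Ppy, Pyy, Npy, Sertm1 and Aqp4 with all 7 libraries and its 95% interval (black), with 1 library left out in DESeq2 (blue, only the 4 fits that gave an adjusted p for Npy) and edgeR (orange), and under the other settings (grey). Every value of Ppy, Pyy and Npy lies above 0, those of Sertm1 and Aqp4 fall on both sides, and the value of Npy moves to 4.63 without control 2.

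The position of the genes was examined next, since Ppy and Pyy are neighbours. They lie on the same strand of chromosome 11 with 5356 bp between them, and their start sites are 6513 bp apart. Within 100 kb of the pair, 7 further genes were tested, with log2 fold changes from -0.35 to 0.33 and a median of -0.07. By DESeq2 or edgeR 0 were called, also at an unadjusted p under 0.05. Over all genes DESeq2 called 4.51% and edgeR 1.05%, and 6.89% had an unadjusted p under 0.05 in DESeq2. A count of 0 among 7 genes is near these shares and does not set the locus apart. Mpp2, a scaffold protein gene of the MAGUK family 11414 bp from Ppy, had 4608 ± 489 (SD, n = 4) normalized counts in control and 4396 ± 696 (SD, n = 3) in KO cells, giving a log2 fold change of -0.07 (DESeq2 adjusted p = 0.994). Nags, the gene of N-acetylglutamate synthase, lies 37680 bp from Pyy on the other side and had 15.6 ± 2.72 and 19.5 ± 8.25, a log2 fold change of 0.33 (DESeq2 adjusted p = 0.996). No gene within 100 kb of Npy was tested. Exons of opposite-strand genes overlapped no exon of the 10 members.

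**Figure D4:**
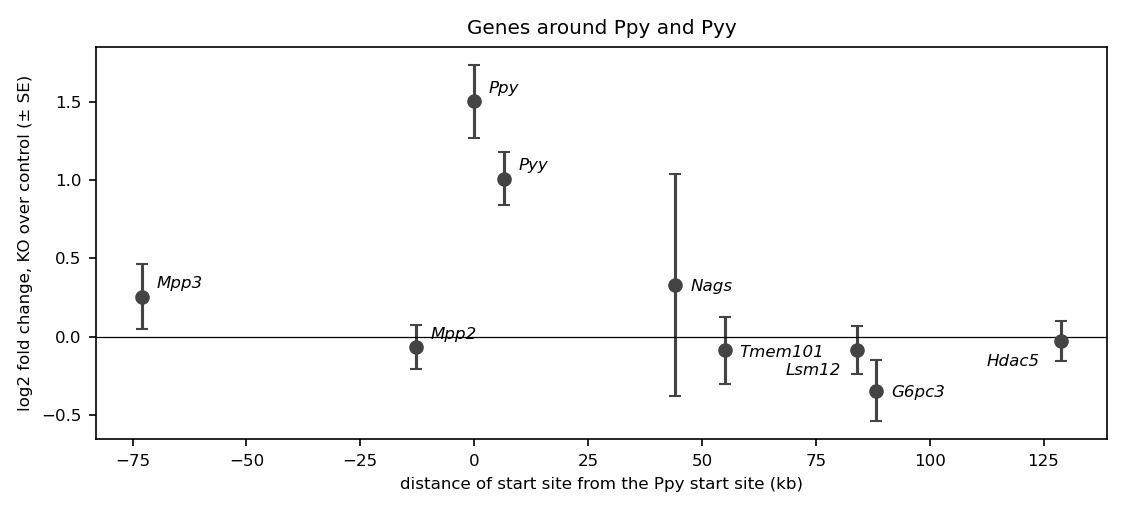
Log2 fold change (KO over control, with the SE of DESeq2) of Ppy, Pyy and the 7 tested genes within 100 kb of them, by distance of each start site from that of Ppy in kb. Ppy and Pyy lie at 1.51 and 1.01 and the neighbours between -0.35 and 0.33.

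Genes that act on the peptides or carry the receptor signal were then read from the same fit. Of 8 genes of prohormone processing and peptide cleavage, 7 were tested, and DESeq2 called 1 higher and 1 lower in KO. Over all genes tested it called 2.24% higher and 2.27% lower. The median log2 fold change of the list was -0.06, against 0.01 over all genes tested. Pcsk1, which encodes the prohormone convertase 1/3, rose from a mean of 3245 ± 1036 (SD, n = 4) to one of 5847 ± 957 (SD, n = 3) in normalized counts (log2 0.85, DESeq2 adjusted p = 0.00877). It was not called without control 3 (0.0649) or without KO 1 (0.194). Pcsk1n, whose product inhibits that convertase, fell from 95169 ± 21014 to 57799 ± 10495 (log2 -0.72, DESeq2 adjusted p = 0.00285) and was called in all 7 leave-out fits. Neither passed in edgeR (adjusted p 0.177 and 0.165). The amidating enzyme gene Pam, at a log2 fold change of 0.03, and the convertase gene Pcsk2, at -0.06, did not pass. Mme, a peptidase gene, had no adjusted p.

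Of 20 genes of the inhibitory G protein pathway that Y receptors use, 18 were tested, and DESeq2 called 2 higher and 4 lower in KO. Over all genes tested it called 2.24% higher and 2.27% lower. The median log2 fold change of the list was -0.07, against 0.01 over all genes tested. The G protein subunit genes Gnao1 (log2 -0.39, DESeq2 adjusted p = 1.57e-04) and Gnaz (-0.41, 0.0486) fell. The adenylate cyclase genes went both ways: Adcy1 fell from 3727 ± 716 (SD, n = 4) in control to 1434 ± 214 (SD, n = 3) in KO cells, a log2 fold change of -1.38 (DESeq2 adjusted p = 5.19e-12), and Adcy5 rose from 1168 ± 195 to 2534 ± 722, or 1.12 on the log2 scale (DESeq2 adjusted p = 1.21e-05). So did genes of G protein-gated potassium channels. Kcnj3 fell from 889 ± 192 to 265 ± 55.4 (log2 -1.75, DESeq2 adjusted p = 1.87e-11), with 31.1% of its exons overlapped from the opposite strand, while Kcnj5 rose from 4.17 ± 3.80 to 34.5 ± 13.4 (log2 3.04, DESeq2 adjusted p = 0.0396). Adcy1, Adcy5 and Kcnj3 passed in edgeR too (adjusted p 0.0135, 0.0411 and 0.0116). Gnaz was called in 2 of 7 leave-out fits, without control 4 and without KO 2, and Kcnj5 in 2 of 5, without control 1 and without control 4.

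**Figure D5:**
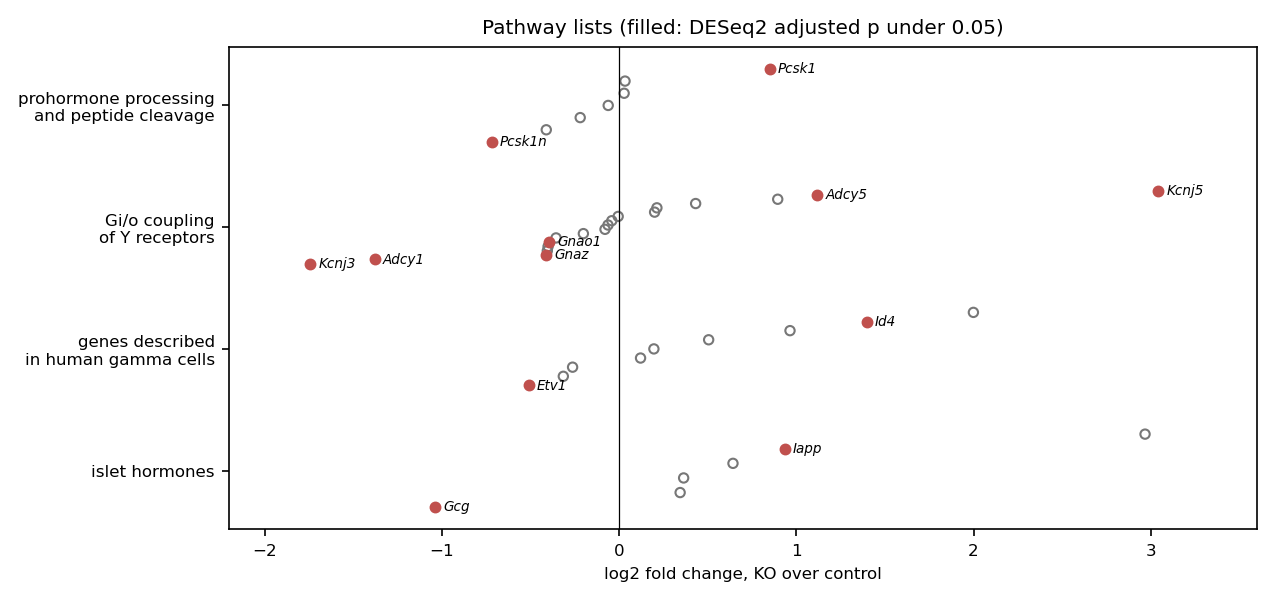
Log2 fold change (KO over control) of each tested gene in 4 lists, filled and named where the DESeq2 adjusted p was under 0.05. Of the 40 genes shown 12 are filled, 5 to the right and 7 to the left of 0. Over all genes tested DESeq2 called 4.51%.

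A list of 9 genes described in human gamma cells was tested in full, with 1 gene higher, 1 lower and a median log2 fold change of 0.20. Over all genes tested DESeq2 called 2.24% higher and 2.27% lower, with a median of 0.01. Id4, a transcriptional inhibitor gene, rose from 328 ± 165 (SD, n = 4) in control to 863 ± 206 (SD, n = 3) in KO cells (log2 1.40, DESeq2 adjusted p = 0.00476) and was not called without KO 2 (0.105). Etv1, an ETS factor gene, fell from 16339 ± 1830 to 11469 ± 606 (log2 -0.51, DESeq2 adjusted p = 6.04e-04). Neither passed in edgeR (0.152 and 0.0764). Fgb (log2 2.00, DESeq2 adjusted p = 0.106) and Slitrk6 (0.50, 0.233) did not pass but had an unadjusted p under 0.05. The groups of Fgb did not overlap. Thsd7a and Abcc9, also not called, had log2 values below 0 (-0.32 and -0.26). Of 6 other islet hormone genes, Iapp, the amylin gene, rose from 55204 ± 17177 to 105491 ± 22167 (log2 0.93, DESeq2 adjusted p = 0.00148, edgeR 0.153) and was not called without KO 1 (0.0853) or the unnumbered KO library (0.112). Gcg fell, and Ins1, Ins2, Sst and Ghrl were not past the threshold. Ghrl had the largest log2 fold change of the 6, 2.97, and its groups did not overlap (DESeq2 adjusted p = 0.130, unadjusted p = 0.00847, edgeR adjusted p = 0.202). The groups of Ins1, Ins2 and Sst overlapped (log2 0.36, 0.34 and 0.64). The median of the 6 was 0.50.

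Some markers of other islet cells were also called by DESeq2, which called 4.51% of all genes tested, while edgeR called 1.05%. Summed delta cell markers were at 197155 to 400129 normalized counts in controls and 356961 to 633738 in KO libraries, overlapping between the groups, with 2 of 5 called higher (Rbp4 and Ffar4). This sum mostly follows Sst, which held 328795 of its 346494 counts in control 1. Sums of the other lists also follow their most abundant genes. Both epsilon cell markers, Ghrl and Mboat4, summed to 26.1 to 1342 in controls, highest in control 2, and to 2469 to 4850 in KO libraries, with Mboat4 called. Of 9 beta cell markers 1 was called, Iapp, and their sums overlapped (338218 to 693220 and 531214 to 976137). Of 9 alpha cell markers 7 were called lower, and their sums were 6480297 to 8470108 in controls and 2973122 to 4291688 in KO libraries. By edgeR 3 of the alpha markers were called and 0 of the beta, delta and epsilon markers, where 4 beta, 2 delta and 2 epsilon genes had an unadjusted p under 0.05. The share of all genes at that unadjusted level was 6.89% in DESeq2 and is not given for edgeR. The part of these cell types in the rise of Ppy, Pyy and Npy was not tested. The marker genes named here were picked after their values were seen.

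Markers of cells outside the islet endocrine types were summed in the same way, beside the same shares of 4.51% (DESeq2) and 1.05% (edgeR) called over all genes. Counts at an unadjusted p under 0.05 stand beside 6.89% of all genes in DESeq2, with no such share given for edgeR. Of 3 sympathetic neuron markers, Th and Slc18a2 did not pass in DESeq2 or edgeR, with 0 at an unadjusted p under 0.05. The third, Dbh, with 0 to 12 raw counts in controls and 0 in all KO libraries, got no adjusted p in DESeq2 (unadjusted p = 0.0186), and the 3 genes summed to 119 to 247 in controls and 153 to 216 in KO libraries. Their part in the Npy difference was not tested. Acinar markers summed to 267 to 10171 and 1562 to 5504 with 0 called by DESeq2 or edgeR, 0 at an unadjusted p under 0.05, and Amy2a2 at 0 in every library. Schwann cell markers (600 to 927 and 651 to 786) and endothelial markers (163 to 224 and 111 to 713) also had 0 called by either tool, with 1 gene each at an unadjusted p under 0.05 in DESeq2 (S100b and Cdh5). Of 5 duct markers Spp1 was called higher by DESeq2 (sums 8350 to 12381 and 11901 to 12455). The duct sum mostly follows Krt7, with 9005 of 9928 counts in control 1. Sox9 (log2 1.69, DESeq2 adjusted p = 0.169) and Cftr (1.83, 0.166) did not pass but had an unadjusted p under 0.05, and their groups did not overlap. Of 4 leukocyte markers C1qa was called lower by DESeq2 (log2 -0.82, sums of the list 962 to 1496 and 824 to 1013). The log2 values of the other leukocyte markers were above 0, and Cd74 (1.55, DESeq2 adjusted p = 0.139) had an unadjusted p under 0.05 and no overlap. In edgeR 0 duct and 0 leukocyte markers were called, with 3 and 2 genes at an unadjusted p under 0.05.

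Genes whose pattern over the 7 libraries was most like that of each peptide gene were found by the root mean square difference of centred log2(normalized count + 1) among 14569 genes with a mean of at least 50. For Ppy these were Folr1, a folate receptor gene (difference 0.13), Unkl (0.18), Calca, the calcitonin and CGRP gene (0.19), and the adenylate kinase gene Ak5 (0.19). The controls held 1131, 1826, 1114 and 808 normalized counts of Folr1 and the KO libraries 2988, 3814 and 3071, so that control 2 was the highest control, as for Ppy. Their log2 fold changes were 1.43, 1.82, 1.53 and 1.42, all with a DESeq2 adjusted p under the threshold, and Ak5 was not called without KO 2 (0.0787). Being picked for likeness over the same libraries, these genes share the fold change of Ppy by choice. The same holds for the genes picked for Pyy and Npy below. Pyy came in place 75 on this measure, at 0.37. Opposite-strand exons overlap 19.6% of the exon length of Unkl.

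For Pyy the most like genes were AC137585.3, a long intergenic RNA (0.11), Olfm3 (0.14), Trp53cor1 (0.14) and Calb1, the calbindin gene (0.15). The controls held 6830, 10193, 8193 and 5504 normalized counts of Calb1 and the KO libraries 14608, 17259 and 13808, which is 0.99 on the log2 scale (DESeq2 adjusted p = 2.31e-05). Olfm3 changed by 1.14 (DESeq2 adjusted p = 2.45e-07). AC137585.3 (1.17, DESeq2 adjusted p = 0.0188) was called in 0 of 7 leave-out fits, with adjusted p from 0.0501 to 0.261, and Trp53cor1, 44.1% of whose exons are overlapped from the opposite strand, was not called (0.92, DESeq2 adjusted p = 0.0517).

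Npy had less close companions. The most like genes were Acot7, an acyl-CoA thioesterase gene (0.31), Serpina1d (0.43), Rin3 (0.47) and Irs4, an insulin receptor substrate gene (0.48). Acot7 had 145, 1678, 366 and 126 normalized counts in controls and 3772, 5756 and 3090 in KO libraries. Irs4 had 6.81, 203, 13.1 and 15.9 in controls and 530, 547 and 465 in KO libraries. In all 4 genes control 2 was the highest control, as for Npy, and all KO libraries lay above it. None of the 4 was called by DESeq2 with all 7 libraries (log2 fold changes 2.30 to 3.11, adjusted p 0.0766 for Acot7 and 0.377 for Rin3). Without control 2 all 4 were called, with log2 fold changes of 4.20 to 5.39. Since likeness was measured over the same libraries, these values are a description.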

How the data were processed

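RNA of sorted alpha cells was extracted with a Qiagen micro kit and made into stranded total RNA libraries with a Takara low-input kit, per the labels' protocols, which call the molecule polyA RNA and the library ribosome-depleted. The authors deposited 1 table of raw counts, with genes as rows and libraries as columns. The submitters' processing notes name FastQC, STAR, featureCounts, DESeq2 and the mm10 build, without settings here, and the strand setting of the counting is not given in the sources used here. All 55536 identifiers matched GENCODE M21 on GRCm38, which gave positions and exon lengths. Of the 7 count columns 1 KO column was placed by its group alone.

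Counts were compared in R 4.3.3 with DESeq2 1.42.0 (Wald test, default size factors and filters, no covariate), the test that the series' design text names, and beside it with the quasi-likelihood test of edgeR 4.0.16 (TMM factors, default filter). Each p-value was adjusted by Benjamini-Hochberg over all genes tested, with a threshold of 0.05. Both fits were tested on counts simulated from these libraries with known changes, with the dispersions and gene filter of edgeR, a setting that may favour edgeR. Each recovered the sizes and directions. Unchanged genes made up 64 of 224 DESeq2 calls, a share far above the threshold, and 10 of 149 edgeR calls, slightly above it. Genes called by DESeq2 and not by edgeR are therefore less secure. Normalized counts are counts divided by DESeq2 size factors, and ± is the SD. Ratios within a library were compared with exact two-sided permutation tests. Total counts per library, 45483504 to 72456557, make counting error small for the peptide genes, where the number of libraries limits precision. Genes with few counts, such as the receptors, are limited by depth as well.

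The 10 genes and all gene lists were chosen with earlier results of these data known, and 1 marker gene is not reported here. Genes named are the members, Nkx2-2 and Gcg, list genes past the threshold, the nearest neighbour on each side, and the 4 genes most like each peptide gene in pattern. Xist, and other list and marker genes named in the text, such as those that did not pass, were picked after their values were seen. Alternatives covered the test, filters, size factors, halved counts, each library left out, the 2 deepest libraries and a Y-linked covariate.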

Additional observations from a re-analysis of the deposited data

Results flagged for a closer look

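A control library far from its group, judged by the critical value of Dixon at 95%, was found in 9 of 41 values measured in 4 controls. Chance gives about 1 in 20, here 2.05. The library was control 2 in all 9. It was the highest control for Npy (1833 normalized counts) and for Acot7 (1678), Serpina1d (2279), Rin3 (215.8) and Irs4 (202.9), the genes picked for a pattern like that of Npy over the same libraries. It was also the highest for Unkl (418.7), picked for its likeness to Ppy. The Ppy to Gcg ratio of control 2 was 6.148 Ppy counts per 100 Gcg counts, and its Ppy to Sertm1 ratio was 560.8. For Npy1r control 2 was the lowest control, at 2.359 normalized counts, from 2 raw counts. In each of the 8 cases other than Npy1r the value of control 2 lay between those of the other controls and those of the KO libraries. Because the companion genes were chosen by likeness, their flags are not independent of that of Npy.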

How the results depend on the processing

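Leaving out 1 library in DESeq2 or edgeR gave log2 fold changes of 1.37 to 1.81 for Ppy, 0.87 to 1.11 for Pyy and 2.81 to 4.63 for Npy, all with the main direction, and of -0.38 to 0.040 for Sertm1, -0.48 to 0.32 for Aqp4, -0.21 to 0.016 for Mpp2 and -0.041 to 0.59 for Nags, whose sign turned in some fits. The number of genes called ran from 20 to 910 over these fits and that of members from 0 to 3. With edgeR 203 genes and 1 member were called, and Pyy (1.01) and Npy (3.16) were not, while without its filter 329 genes were called, with all 3 peptide genes. A term for the 2 deepest libraries gave 1379 calls and a Y-linked covariate 1276. Without the 2 deepest libraries Npy was 2.92 and not called (adjusted p 0.227 in DESeq2), and Mpp2 was 0.020. With library totals as size factors the median over all genes tested was 0.10 higher and Mpp2 was 0.026. The groups share 2 replicate numbers, and same-numbered libraries deviated together with correlations of 0.231 and 0.301 over 14570 genes, too few pairs to show a pairing. A replicate block over these 4 libraries gave 1.25 for Ppy (DESeq2 adjusted p 9.05e-04), 1.12 for Pyy, 3.57 for Npy (not called, 0.176), 0.15 for Sertm1, -0.13 for Aqp4 and 0.12 for Mpp2. The same 4 libraries with no block gave 1.19, 1.09 and 2.57 for the peptide genes, with 0 members called, 0.17 for Sertm1 and 0.13 for Mpp2. Fits on fewer libraries have less to test with, and the cause of the other changes was not tested. For the receptor genes, at or near the floor of counts, no fold change is printed, and where a fit gave an adjusted p it was 0.291 to 0.999. Npy got no adjusted p in the 3 DESeq2 fits without a KO library. The edgeR fits with 1 library left out and the fit without the block were chosen after seeing the data, as were the leave-out values of the ratios to Sertm1, Aqp4 and Ppy. The 8 ratios kept their direction with each library left out.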
